A study of Mus musculus with 6 samples.

Results

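Histone genes were taken as the rows of the deposited gene table whose symbol belongs to one of the histone families: the linker histones H1f, the core histones H2ac, H2bc, H3c and H4c with H4f16, and the named variants H2ax, H2az1, H2az2, H3f3a, H3f3b, Macroh2a1 and Macroh2a2. The symbols alone picked the rows and no measured value entered the rule, but the rule was set with earlier results of these data known. There were 70 such rows among 52249. Of these, 57 were replication-dependent genes, 12 were variant genes and 1 was named as a pseudogene, H1f11-ps, which had 3 counts in the control libraries together and 0 in the others. GENCODE M21 annotates 2 of the 70 rows as pseudogenes, H1f11-ps and H2ac14, and H2ac14, with no count in any library, was kept among the 57 by its symbol. The replication-dependent genes were clustered in the genome, with 46 on chromosome 13, 10 on chromosome 3 and 1, H4f16, on chromosome 6.

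The libraries were made from organoids of mouse intestine, cultures in which gut epithelium grows as small hollow bodies. All 6 carried an Apc knockout. Apc encodes a tumour suppressor of the Wnt pathway. The 3 control libraries had no other labelled change, and the other 3, here called OE libraries, were labelled as also overexpressing IGF2BP3, an RNA-binding protein of the oncofetal family that binds many mRNAs. No wild-type library was among them, so each comparison is of added IGF2BP3 on an Apc-knockout background. The promoter, the vector, the number of clones and the age of the animals are not given in the sources used here, nor is it said that the replicates came from separate cultures, so p-values measure only the spread between these libraries. The mouse Igf2bp3 row held 1 count in control replicate 1, 1 in OE replicate 1 and 0 in the other 4 libraries, which gives no check of the label. The library names of the groups come from different series, so library series and genotype cannot be told apart.

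Each library held between 2180116 and 2519917 counts, and the groups averaged 2208781 ± 25316 counts in the controls and 2434707 ± 110216 in the OE libraries (SD, n = 3 each). At that depth a floor of 3 counts corresponded to between 1.18 and 1.41 CPM (counts scaled to a library total of 1000000). Of 14 epithelial markers 12 could be tested, and their summed share of counts was 0.454% to 0.475% in the controls and 0.68% to 0.715% in the OE libraries, with Cdx1 and Lyz1 at 0 throughout. Of the 12, 5 were higher (Spink4, Krt18, Krt8, Krt19 and Vil1) and 1 was lower (Cldn7), beside 16.5% higher and 12.7% lower of all genes tested. The other 6, with Epcam and Cdh1 among them, did not pass. The 7 fibroblast and muscle markers summed to 1 to 4 counts per library and the 3 endothelial markers to 0 or 1. The 5 immune markers summed to 29 to 50 counts, nearly all from Cd68, with Cd3e, Cd79a and Lyz2 at 0. In bulk libraries fewer cells of a type and less RNA per cell cannot be told apart.

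Histones package DNA into nucleosomes. The core histones H2A, H2B, H3 and H4 form the particle, and linker histones of the H1 family bind the DNA where it enters and leaves. Replication-dependent histone genes are transcribed in S phase to supply new chromatin, and their mRNAs usually end just after a conserved stem-loop, bound by the protein SLBP, in place of a poly(A) tail. Variant histone genes are expressed through the cell cycle and in cells that no longer divide, and their mRNAs are polyadenylated like others. Some replication-dependent genes can also give longer, polyadenylated mRNAs that read past the stem-loop, mostly in differentiated cells. The libraries were made with a 3′ mRNA kit that primes on poly(A), a tail that the usual form of a replication-dependent mRNA lacks. Which form of these mRNAs gave the counts below was not tested.

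The stem-loop was searched for after the stop codon in the GENCODE M21 transcripts (GRCm38), on the transcript's strand. The pattern was a 6-base stem of the form GGYYYT (Y for C or T), a 4-base loop and the exact complement of the stem. The stem-loop was found in 38 of the 57 replication-dependent genes, in 2 of the 12 variants (H2ax and H1f6) and in 0.395% of 22527 coding genes. Each histone gene was read on its longest coding transcript only, while a coding gene counted if any of its transcripts matched. H2ac14 has no annotated stop codon and counts as having no match. The commonest form, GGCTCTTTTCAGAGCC, was present in 21 replication-dependent genes. The windows below are shown because they carry the element that separates the 2 kinds of histone mRNA, in the genes whose values follow; each is 5′ to 3′ with the stem-loop in capitals. H1f4, H1f2 and H3c4 are replication-dependent genes that reached the test, H1f3 and H4c9 did not reach it, and H2ax is a variant gene.
H1f4, chr13:23621775-23621804, minus strand: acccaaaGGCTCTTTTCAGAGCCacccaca
H1f2, chr13:23739505-23739534, plus strand: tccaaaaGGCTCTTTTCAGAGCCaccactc
H3c4, chr13:23576237-23576266, plus strand: ccccaaaGGCTCTTTTCAGAGCCacccccg
H1f3, chr13:23555780-23555809, plus strand: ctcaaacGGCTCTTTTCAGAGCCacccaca
H4c9, chr13:22040959-22040988, minus strand: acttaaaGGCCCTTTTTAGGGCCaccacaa
H2ax, chr9:44335233-44335262, plus strand: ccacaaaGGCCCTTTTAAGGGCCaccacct

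The 4 H1f and H3c windows share all 16 bases of the element and differ in the bases around it. Whether the element or its flanks bear on the levels was not tested.

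The counterpart of the stem-loop in ordinary mRNAs is the poly(A) signal. AATAAA or ATTAAA was present in the last 50 bases of 9 of the 12 variant transcripts, of 11 of the 57 replication-dependent ones (10 of which also held the stem-loop) and of 76.7% of coding genes. Histone genes and coding genes were counted as for the stem-loop, on the longest and on any transcript. The next windows show it, in capitals, near the annotated ends of genes that the results turn on. No match was found in that window for H1f4, H2bc4 or H3c4.
H1f2, chr13:23740330-23740359, plus strand: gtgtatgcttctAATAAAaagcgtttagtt
H2bc21, chr3:96223705-96223734, plus strand: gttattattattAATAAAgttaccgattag
H1f0, chr15:79030471-79030500, plus strand: ttaaaactttaaAATAAAactggaaaggaa
H2ax, chr9:44336031-44336060, plus strand: tgggctaattttATTAAAggatcgtttggt

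These are matches of letters in an annotated transcript and do not show where the sequenced RNAs ended.

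Most replication-dependent histone genes were near or at the floor of the libraries. Of the 57, 11 had no count in any library, 38 never rose above 3 counts, and 10 reached 10 counts in at least 1 library. Only 5 passed the filter on low counts and were tested: H1f4, H1f2, H2bc4, H2bc21 and H3c4. All 15 H2A genes and all 11 H4 genes were left untested. At this depth nothing can be said of a change in most single members.

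The counts differed with the annotated 3′ end. The 18 genes whose transcript ends within 100 bases after the stem-loop had a median of 4 counts over the 6 libraries together and none was tested. The 20 whose transcript runs on for more than 100 bases had a median of 16.5 counts, with a range from 0 to 725, and 3 were tested. A further 16 genes had no stem-loop match and at most 100 bases after the stop codon, with a median of 2 counts, and H2ac14 had no stop codon from which to measure. H2bc4 and H2bc21 had no match but a longer 3′ end, and both were tested. In H1f4 the annotated transcript continues for 1153 bases after the stem-loop, in H1f2 for 840 and in H3c4 for 752. Genes with a poly(A) signal had a median of 18 counts (11 genes) against 3 for those without (46 genes). This is a description of counts against annotation, in which copies of one family share sequence. Reads past the annotated end of a gene would not be counted for it. Fewer RNAs and a short annotated end therefore cannot be told apart here.

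**Figure D1:**
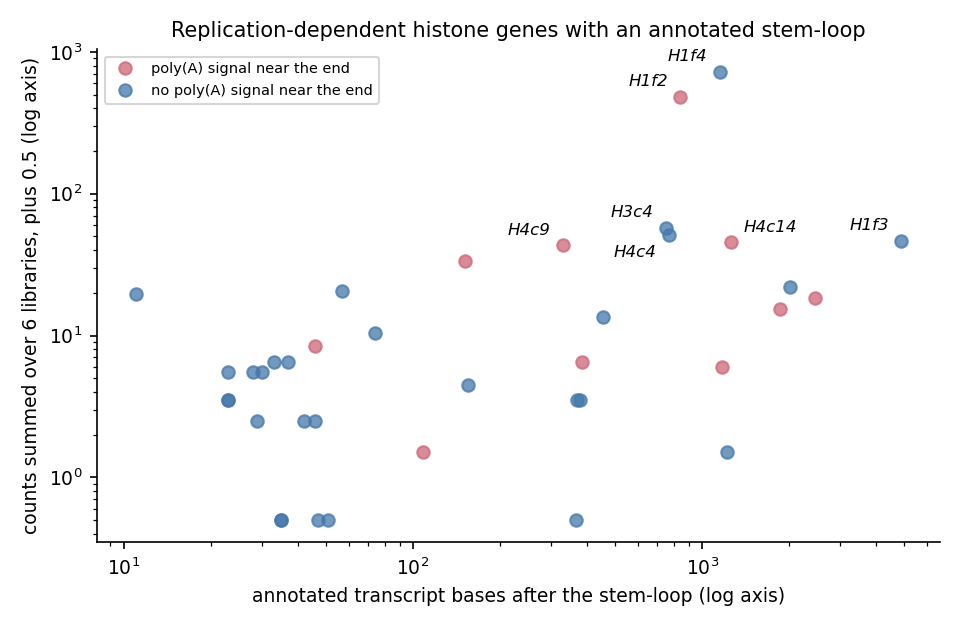
Counts summed over the 6 libraries (y, log axis, 0.5 added) against the bases of annotated transcript after the stem-loop (x, log axis) for the 38 replication-dependent histone genes with a stem-loop; each point is a gene, coloured by whether AATAAA or ATTAAA lies in its last 50 bases. Genes that end within 100 bases reach at most 20 counts, while H1f4 and H1f2, with 1153 and 840 bases, hold 725 and 484.

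The comparison between the groups asks how histone mRNA levels differ when IGF2BP3 is added to the Apc knockout. Among the 5 replication-dependent genes tested, 1 was higher in the OE libraries (H2bc4), 1 was lower (H1f4) and 3 did not pass, using edgeR's quasi-likelihood test with Benjamini-Hochberg adjustment over all 10687 genes tested and an adjusted p below 0.05. Of all genes tested, 16.5% were called higher and 12.7% lower, 29.2% in all. The median log2 fold change (OE minus control) was 0.35 over the 5 genes and 0.04 over all genes tested, and groups did not overlap in 3 of the 5, beside 45.7% of all genes tested. These tallies include H3c4, which met the filter through its OE libraries; without it the median was 0.12 and 2 of 4 genes did not overlap.

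H1f4, a somatic linker histone, fell. Its levels were 87.6, 90.1 and 101 CPM in the controls and 21.1, 15.7 and 13.5 CPM in the OE libraries, from 190, 192 and 219 counts and 52, 40 and 32 counts. Each OE library was far below the lowest control. The mean went from 92.8 ± 7.09 to 16.8 ± 3.88 CPM (SD, n = 3), or 5.51-fold lower (edgeR log2 fold change -2.46 with SE 0.17, adjusted p 4.73e-06). The gene lies at chr13:23620629-23622558 on the minus strand as a single exon (GRCm38). It overlaps 2 genes on its own strand, Gm11398, with no count in any library, and H2bc6, with 1, 4 and 2 counts in the controls and 2, 2 and 4 in the OE libraries. In all, 2 other genes had a stretch at least 95% identical to its transcript over 100 bases or more. Each of these stretches reached into its last 300 bases, so reads from there could be split or dropped.

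The share of counts from RNA that usually carries no long poly(A) tail was lower in the OE libraries too, while single RNAs of this kind differed in direction. Genes of non-polyadenylated RNAs (ribosomal, small nucleolar and similar) took 13.7%, 13.5% and 13.7% of counts in the controls and 6.42%, 5.48% and 5.23% in the OE libraries. Of the 185 rows on that list 10 were tested, with a median log2 fold change of -1.21. Of these, 6 were lower, 2 higher and 2 not called, beside 12.7% lower and 16.5% higher of all genes tested. The tally and the median include Snord49b and Snord87, which met the filter through their control libraries. Nearly all of the share came from mt-Rnr1 and mt-Rnr2, the mitochondrial ribosomal RNAs, and CT010467.1, with log2 fold changes of -1.20, -1.23 and -1.52. Among the small RNAs, Snord89 (-3.05), Snord87 (-3.38) and Snord49b (-2.77) fell, while Snord13 (0.43) and Rn7sk (0.97) rose. Snord104 (-0.02) and Snord118 (0.65) did not pass. The part of this difference in the H1f4 result was not tested. With the genes of that list and the mitochondrial genes removed before scaling, the log2 fold change of H1f4 was -2.52 (edgeR adjusted p 9.25e-06). The removal changes the scaling and not the H1f4 counts, so it cannot show how far H1f4 RNA without a tail entered each library.

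H1f2, a linker histone with the same stem-loop, did not pass the test. It was at 36.9, 36.1 and 35.9 CPM in the controls and 24.7, 36.6 and 40.2 CPM in the OE libraries. The controls lay close together, and the OE libraries spread to both sides of them. The log2 fold change was -0.10 with SE 0.18 (edgeR adjusted p 0.708). Within each library, H1f4 had 2.38, 2.49 and 2.81 counts per H1f2 count in the controls and 0.852, 0.43 and 0.337 in the OE libraries. The log2 ratio differed by -2.36 between the groups, and its exact two-sided permutation p was 0.1, the smallest that 3 against 3 libraries can give.

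H2bc4, a core histone gene at chr13:23684199-23692908 on the plus strand, rose. Its levels were 17.5, 23.5 and 19.4 CPM in the controls and 29.6, 31.9 and 34.7 CPM in the OE libraries. All OE libraries were above all controls, at 32 ± 2.55 against 20.1 ± 3.04 CPM (SD, n = 3). In edgeR this was a 1.59-fold rise, a log2 fold change of 0.67 with SE 0.18 and an adjusted p of 0.0145. The call was lost with DESeq2 (0.63, adjusted p 0.0729), without control replicate 1 (0.58, edgeR adjusted p 0.0743) and without control replicate 3 (0.64, edgeR adjusted p 0.0638). Its annotated transcript has 2 exons, unlike the single exon of most replication-dependent genes, and 12 other genes share at least 100 bases with it at 95% identity or more, none of them in its last 300 bases.

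H3c4, a core H3 gene, had 3, 8 and 8 counts in the controls and 14, 13 and 11 in the OE libraries, or 1.38, 3.75 and 3.69 CPM against 5.67, 5.11 and 4.65. The groups did not overlap, but the counts are low and the gene met the filter through its OE libraries. Its log2 fold change was 0.80 with SE 0.40 (edgeR adjusted p 0.151), and 0.46 without control replicate 1 (edgeR adjusted p 0.453), the library with 3 counts. H2bc21, an H2B gene of the chromosome 3 cluster, was at 5.99, 7.98 and 4.15 CPM in the controls and 6.89, 12.2 and 3.81 CPM in the OE libraries. Its groups overlapped, and OE replicate 2 alone was above every control. The log2 fold change was 0.35 with SE 0.41 (edgeR adjusted p 0.553), and -0.19 without that library.

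Another 5 replication-dependent genes reached 10 counts in a library without passing the filter. H1f3, a linker histone, had 5, 17 and 9 counts in the controls and 2, 8 and 5 in the OE libraries. H4c4 had 9, 8 and 13 against 7, 6 and 8 counts, and H4c9 had 3, 9 and 6 against 13, 6 and 6. These H4 genes lay on opposite sides of their controls by total, with 30 against 21 counts for H4c4 and 18 against 25 for H4c9. The totals were 18 against 15 counts for H2ac8 and 23 against 22 for H4c14.

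Summed by family, the untested genes gave 50 counts in the controls and 22 in the OE libraries for H1, 62.5 and 51 for H2A, 16 and 19 for H2B, 14 and 27.5 for H3, and 101 and 98 for H4. Of the plain library totals, without TMM, the 52 untested genes together made up 36.8 ± 8.5 CPM in the controls and 29.9 ± 5.41 in the OE libraries, which is within the spread of the libraries. All 57 replication-dependent genes took 173, 203 and 198 CPM on the same scale in the controls and 114, 130 and 135 in the OE libraries. That gap came from 1 gene: without H1f4 the values were 88, 114 and 99.6 in the controls and 93, 114 and 121 in the OE libraries, and the groups overlapped.

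**Figure D2:**
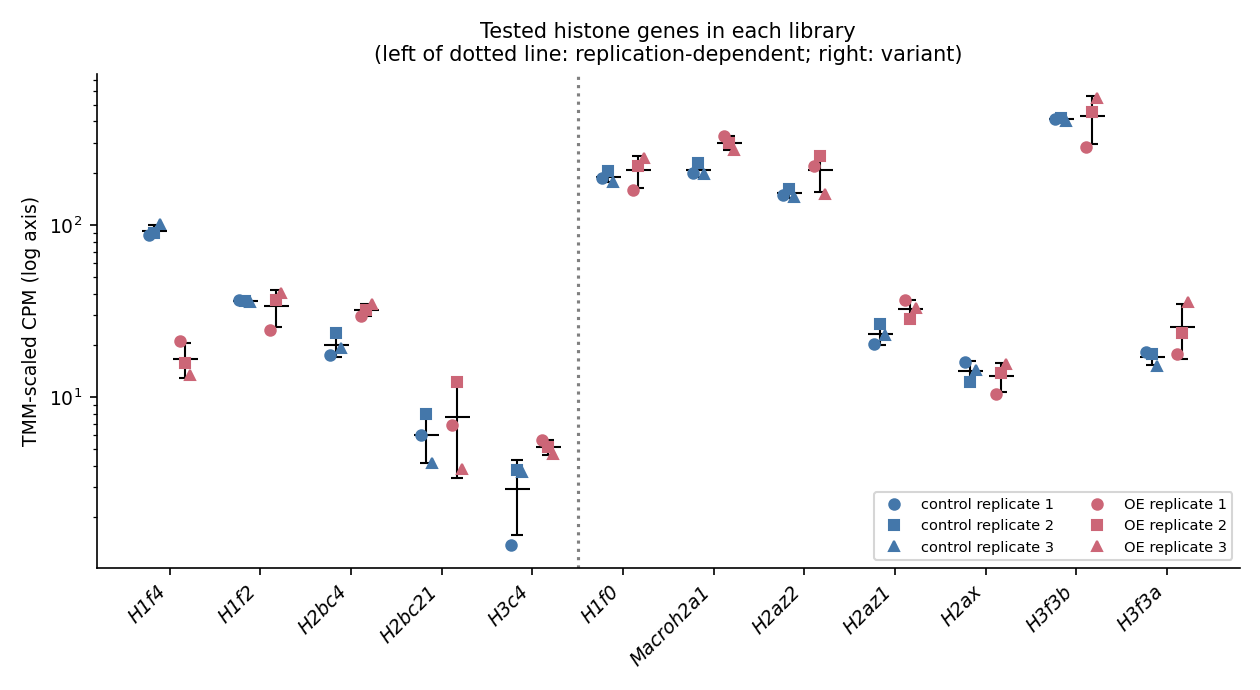
Level of each tested histone gene in each library (TMM-scaled CPM, log axis), controls in blue and OE libraries in red, with symbols for replicates and black bars for the mean ± SD (n = 3). The H1f4 libraries separate widely, from 87.6 CPM in the lowest control to 21.1 in the highest OE library, and the OE libraries of H3f3b span 284 to 549 CPM.

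Among the 12 variant genes, 7 were tested, 1 was higher in the OE libraries (Macroh2a1), 0 were lower and 6 did not pass, beside 16.5% higher and 12.7% lower of all genes tested. The DESeq2 test also called 0 variants lower, and 0 had a negative log2 fold change at an unadjusted edgeR p below 0.05. The log2 fold change was positive in 6 of the 7, with a median of 0.45, beside 53% positive and a median of 0.04 over all genes tested. Groups did not overlap in 2 of the 7, beside 45.7% of all genes tested. The germline linker histones H1f6, H1f7 and H1f8 had no count in any library. H1f10 (6 counts in the controls and 1 in the OE libraries) and Macroh2a2 (8 and 6 counts) stayed below the filter. Of the plain totals, the variants together took 982, 1050 and 957 CPM in the controls and 1057, 1302 and 1335 in the OE libraries. Those totals include the non-polyadenylated RNAs, at 13.6% of counts in the controls and 5.71% in the OE libraries. A smaller share of these raises the share of other genes, and the variant sum was not taken without them.

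Macroh2a1 rose. It encodes macroH2A1, an H2A variant with a large globular domain that is found on silenced chromatin. Its levels were 200, 230 and 197 CPM in the controls and 329, 299 and 274 CPM in the OE libraries, so every OE library was above every control. The mean went from 209 ± 18.5 to 301 ± 27.7 CPM (SD, n = 3), or 1.44-fold (edgeR log2 fold change 0.52 with SE 0.11, adjusted p 0.00461). The call held in all 17 alternative settings, with log2 fold changes from 0.40 to 0.60. The gene lies at chr13:56073619-56136361 on the minus strand and overlaps 1 gene on the opposite strand.

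The genes of H2A.Z, the variant placed around transcription start sites, had values on the same side without passing. H2az1 was at 20.3, 26.7 and 23 CPM in the controls and 36.5, 28.3 and 33 CPM in the OE libraries. The groups did not overlap, and the log2 fold change was 0.48 with SE 0.18 (edgeR adjusted p 0.0608). H2az2 was at 150, 163 and 146 CPM in the controls and 221, 252 and 151 CPM in the OE libraries. OE replicate 3 lay among the controls and the other two OE libraries above them, and the log2 fold change was 0.45 with SE 0.16 (edgeR adjusted p 0.0528). The value for H2az2 rests on single OE libraries, being 0.63 without OE replicate 3 (edgeR adjusted p 0.000811) and 0.26 without OE replicate 2 (edgeR adjusted p 0.294). Other genes share near-identical stretches with the last 300 bases of H2az1 (2 genes), so its count could include or lose reads of those.

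H3f3a and H3f3b encode the same H3.3 protein, the replacement H3 that is deposited outside replication. H3f3b was at 414, 417 and 402 CPM in the controls and 284, 451 and 549 CPM in the OE libraries. The controls lay within 1.04-fold of each other, while the OE libraries differed by 1.93-fold and lay on both sides of the controls, and the log2 fold change was 0.06 with SE 0.18 (edgeR adjusted p 0.837). H3f3a was at 18.4, 17.8 and 15.2 CPM in the controls and 17.8, 23.6 and 35.5 CPM in the OE libraries. OE replicate 1 was within the control range and the others were above it, and the log2 fold change was 0.57 with SE 0.25 (edgeR adjusted p 0.102). Without OE replicate 1 it was 0.72 (edgeR adjusted p 0.0149), and without OE replicate 3 it was 0.28 (edgeR adjusted p 0.361). H3f3a made up 4.26%, 4.1% and 3.64% of the counts of the pair in the controls and 5.91%, 4.97% and 6.08% in the OE libraries. This share did not overlap between the groups, though neither gene passed the test. The share of H2az1 in the counts of H2az1 and H2az2 did overlap. It was 11.9%, 14.1% and 13.7% in the controls and 14.2%, 10.1% and 17.9% in the OE libraries. H3f3a overlaps 2 genes on the opposite strand, and 19 other genes hold a near-identical stretch of it, none in its last 300 bases.

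H2ax encodes H2A.X, which is phosphorylated at DNA breaks, and its mRNA can end either at the stem-loop or at a poly(A) tail. It was at 16.1, 12.2 and 14.3 CPM in the controls and 10.5, 13.8 and 15.6 CPM in the OE libraries. The groups overlapped, and the log2 fold change was -0.10 with SE 0.24 (edgeR adjusted p 0.793). H1f0, the linker histone that accumulates in differentiated and resting cells, was at 188, 205 and 179 CPM in the controls and 160, 221 and 245 CPM in the OE libraries. One OE library was below all controls and the other two above them, and the log2 fold change was 0.13 with SE 0.14 (edgeR adjusted p 0.523).

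**Figure D3:**
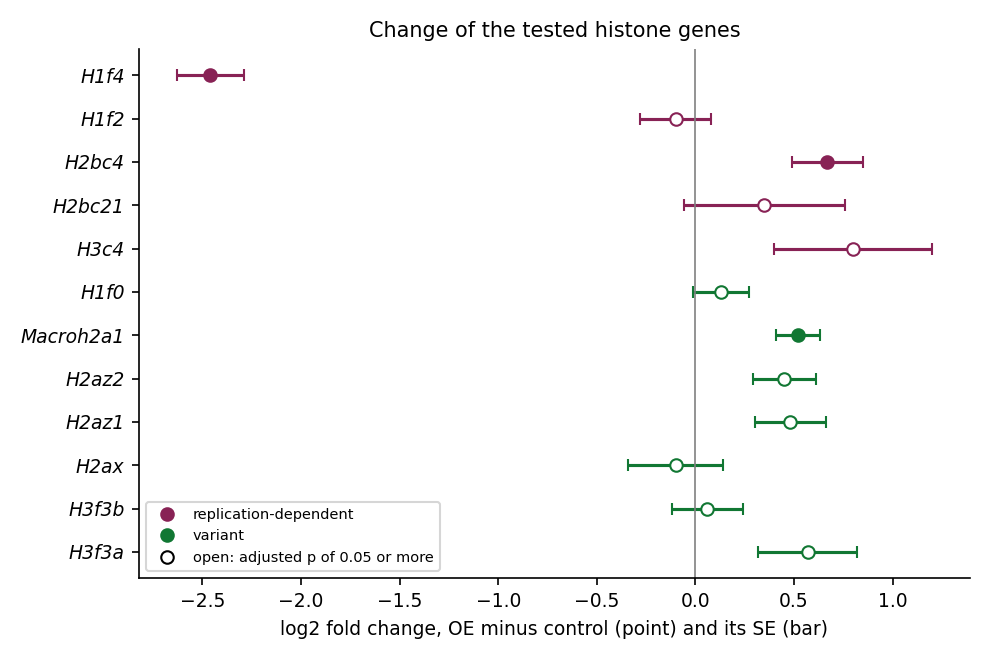
Log2 fold change (OE minus control) of the 12 tested histone genes, with its SE as a bar; filled points have an edgeR adjusted p below 0.05. H1f4 stands at -2.46, and the other genes lie between -0.10 and 0.80.

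Linker histones compete for the same site on the nucleosome, and the make-up of their counts differed between the groups. The linker genes summed to 692, 730 and 703 counts in the controls and 513, 709 and 712 in the OE libraries. H1f4 made up 27.5%, 26.3% and 31.2% of them in the controls and 10.1%, 5.64% and 4.49% in the OE libraries. H1f0 made up 59.1%, 59.7% and 55.2% in the controls and 77.2%, 79.4% and 81.3% in the OE libraries. H1f2 went from 11.1% ± 0.507 to 12.8% ± 0.781 (SD, n = 3). Shares of a fixed whole move against each other, and the CPM of H1f0 and H1f2 did not pass the test. The shares are of counts in libraries primed on poly(A), not of all linker histone mRNA.

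**Figure D4:**
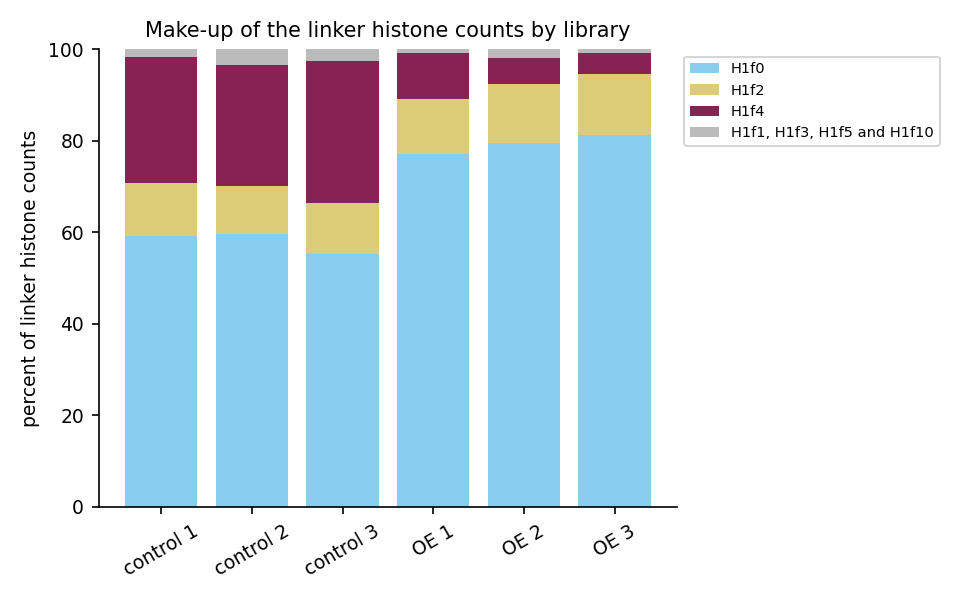
Share of the linker histone counts (percent, stacked bars from 0 to 100) taken by each gene in each of the 6 libraries. H1f4 takes 26.3% to 31.2% in the controls and 4.49% to 10.1% in the OE libraries, and H1f0 takes 55.2% to 59.7% and 77.2% to 81.3%.

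The OE libraries differed more among themselves than the controls did for most genes tested, and the tested histone genes went with them. The coefficient of variation was wider in the OE libraries for 9 of the 12 tested members, with a median of 22% against 9.43% in the controls. Over all genes tested it was wider in the OE libraries for 67.2%, with medians of 15.9% and 10.5%. OE replicate 1 held the lowest OE value for 6 members (H1f2, H2bc4, H1f0, H2ax, H3f3a and H3f3b) and OE replicate 3 for 5. The genes did not follow a single order of libraries. In H1f2, H2bc21, H2az2, H3f3a, H3f3b, H1f0 and H2ax at least 1 OE library lay within or below the control range. All OE libraries of H1f4 lay below its controls.

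Genes that act with histones were set beside them as lists, and the alternatives for these lists were added after the data were seen. Of 33 symbols for the processing and turnover of histone mRNA, 27 were tested, 4 were higher, 5 lower and 18 not passed, with a median log2 fold change of -0.09, beside 16.5% higher and 12.7% lower of all genes tested. Slbp, which encodes the stem-loop binding protein, was at 5.53, 7.04 and 5.99 CPM in the controls and 4.05, 3.54 and 5.07 CPM in the OE libraries. The groups did not overlap, but with 9 to 15 counts a library the log2 fold change was -0.55 with SE 0.32 (edgeR adjusted p 0.218). Npat, the coactivator of histone gene transcription, was at 36.4, 28.6 and 45.6 CPM in the controls and 29.2, 20.8 and 25.8 CPM in the OE libraries, with overlap (-0.55, SE 0.20, edgeR adjusted p 0.0577). Tut4 (-0.56, edgeR adjusted p 0.00356) and Tut7 (-0.51, edgeR adjusted p 0.0108), the terminal uridyltransferases that tag RNAs including histone mRNAs for decay, fell. Of the factors that also act in the cleavage of ordinary pre-mRNA, Cpsf1 (0.62, edgeR adjusted p 0.00247) and Cpsf3 (0.52, edgeR adjusted p 0.0139) rose. Cpsf2 (-0.56, edgeR adjusted p 0.0135) and Cstf2 (-0.53, edgeR adjusted p 0.0169) fell. Over the alternatives this list had 1 to 5 genes higher and 1 to 7 lower.

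Of 31 symbols for histone chaperones and deposition factors, 28 were tested, of which 11 fell, 1 rose (Nap1l4, a nucleosome assembly protein, by 0.81) and 16 did not pass, beside 12.7% lower and 16.5% higher of all genes tested. The median log2 fold change was -0.11. Hira, which deposits H3.3 in active chromatin, went from 31.8, 29.1 and 23.5 CPM in the controls to 14.6, 11.8 and 10.6 in the OE libraries (-1.19, SE 0.21, edgeR adjusted p 0.00159). Atrx, which deposits H3.3 with Daxx at repeats and telomeres, went from 544 ± 9.24 to 336 ± 55.2 CPM (SD, n = 3; -0.70, edgeR adjusted p 0.00139). Supt16, a subunit of the FACT complex that opens nucleosomes, went from 154, 181 and 173 CPM to 103, 92.4 and 82.9 (-0.87, SE 0.12, edgeR adjusted p 0.000435). The groups did not overlap in each of these 3 genes, which were named for their small p, beside 45.7% of all genes tested. Set, a chaperone that also inhibits a phosphatase, fell from 387 ± 2.09 to 248 ± 30.2 CPM (SD, n = 3; -0.64, edgeR adjusted p 0.00119). Ssrp1, the partner of Supt16 in FACT, was at a log2 fold change of 0.10 and Daxx at 0.00, and neither passed. From 8 to 11 members of this list were lower across the alternatives.

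Of 49 DNA replication genes, which mark the phase in which replication-dependent histone genes are transcribed, 36 were tested, 6 rose, 1 fell and 29 did not pass, a share of rises near the 16.5% of all genes tested. The median log2 fold change was 0.05, beside 0.04 over all genes tested. Pole, the catalytic subunit of DNA polymerase epsilon, rose by 1.37 and Rpa1, a subunit of the single-strand binding complex, by 0.88 (edgeR adjusted p 0.00786 and 0.00572). Top2a, the topoisomerase of dividing cells, fell by 0.61 (edgeR adjusted p 0.0126), and E2f1, a transcription factor of the entry into S phase, rose by 1.15 (edgeR adjusted p 0.0209). Pcna (0.38) and Mki67 (-0.15) did not pass. Over the alternatives this list had 2 to 7 genes higher and 0 to 4 lower.

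**Figure D5:**
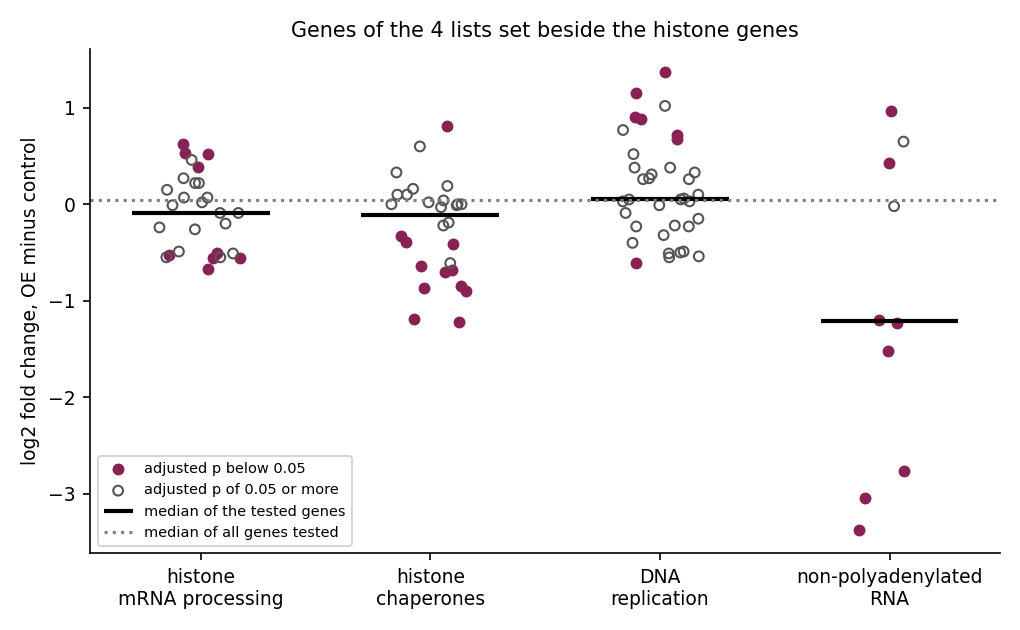
Log2 fold change (OE minus control) of each tested gene in 4 lists, with filled points for an edgeR adjusted p below 0.05, a black line for the median of each list and a dotted line for the median of all genes tested (0.04). The lists for histone mRNA processing, chaperones and DNA replication have medians of -0.09, -0.11 and 0.05, and the 10 tested non-polyadenylated RNAs have a median of -1.21. Of the last, Snord49b and Snord87 met the filter through their control libraries.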

How the data were processed

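The 6 libraries were made from total RNA with a QuantSeq 3′ forward kit, per the labels' protocols. The authors deposited 1 table of estimated counts per gene and library; 2843 values (3.09% of those above 0) were not whole numbers, 2 histone genes among them, so the values are expected counts and were rounded. STAR, HTSeq and the mouse GRCm38 build are named in the submitters' processing notes; settings, annotation, strand, multiple mapping and use of molecular identifiers are not given in the sources used here. Genes were kept with filterByExpr, scaled by TMM and tested with edgeR 4.0.16 (limma 3.58.1, R 4.3.3), controls against OE, with no covariate. CPM is the rounded count over the scaled library total. A fold change of low genes depends on the prior count. DESeq2 1.42.0 was one of 17 alternatives. Sequences, positions and overlaps came from GENCODE M21, which held 99.5% of the gene identifiers and all 70 histone rows, and near-identical copies from BLAST 2.17.0. Every histone gene that passed the filter, or reached 10 counts in a library, was named; of each other list, up to 4 genes with the smallest p among those called, plus Slbp and Npat, and a few others chosen after their values were seen. The members and lists were chosen with earlier results of these data known. Protein sequences were not used here.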

Additional observations from a re-analysis of the deposited data

How the results depend on the processing

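H1f4 stayed lower in 17 of 17 alternatives (log2 fold change -2.71 to -2.33, adjusted p 5.1e-40 to 0.000326), and Macroh2a1 higher in 17 of 17 (adjusted p 0.00114 to 0.0416). Of 203 alternative values for single histone genes 183 kept direction and call, 3 lost the call (all H2bc4), 10 gained it (H2az1 in 1, H2az2 in 6, H3f3a in 3) and 7 changed sign, in genes that did not pass: H1f2 (0.023 without OE replicate 1; -0.24 to 0.023 over the left-out libraries), H2bc21 (-0.19 without OE replicate 2; -0.19 to 0.67), H2ax (0.0029 without control replicate 1; -0.22 to 0.0029), H1f0 -0.0052 with the replicate block and a GC offset, and H3f3b -0.00099 without mitochondrial and non-polyadenylated RNA genes, -0.019 without OE replicate 2 and -0.16 without OE replicate 3 (-0.16 to 0.23). The cause of each was not tested. H3c4 was not tested at equal depth.

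The replication-dependent genes called higher were 0 with the DESeq2 test and 0 to 1 with a library left out (0 without control replicate 1 or 3), and those called lower were 2 with no count filter, which adds H2ac20 (16 counts against 4). Variant genes called higher were 3 with library totals, 2 with no count filter, 3 with a GC offset, and 1 to 2 with a library left out (2 without OE replicate 1 or 3). The replication-dependent share was 228 CPM in the controls and 138 in the OE libraries once mitochondrial and non-polyadenylated RNA genes were removed, against 191 and 126. Genes called over the whole table were 3118, and 1748 to 3532 with a library left out (1893, 1837 and 1748 without control replicate 1, 2 and 3). DESeq2 called 2096. Of the calls 56.6% were higher; scaling by DESeq2's factors gave 49.9% and scaling by plain totals 63.8%, and the median log2 fold change over the table went from 0.041 to -0.003 and 0.089.

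The replicate numbers are shared by the groups, but same-numbered libraries deviated together only weakly (r = 0.0975, 0.0181 and 0.0695), each OE library correlating best with its own number. A replicate block gave 3112 calls and 2 variant genes higher, Macroh2a1 and H2az2 (0.42, adjusted p 0.0309), and with a GC offset as well 3, with H2az2 (0.51, adjusted p 0.0107) and H3f3a (0.74, adjusted p 0.0198).

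Limits: with 3 libraries a group, about 2180116 to 2519917 counts each and most replication-dependent genes at or under 3 counts, a change in those genes was not detectable. The histone families hold near-identical copies, and the treatment of reads that match several genes is not given in the sources used here.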

Other observations

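Several histone genes lay outside the symbols described above. H2aj, a replication-independent H2A gene, was at 107, 115 and 117 CPM in the controls and 174, 156 and 172 CPM in the OE libraries. The groups did not overlap, with means of 113 ± 5.33 and 167 ± 10.2 CPM (SD, n = 3) and a log2 fold change of 0.57 (edgeR adjusted p 0.00244, with SE 0.11). H2aw, another H2A gene, was at 18.4, 20.2 and 23 CPM against 27.5, 33.8 and 19, with overlap (0.39, SE 0.22, edgeR adjusted p 0.211). Cenpa, the centromeric H3 variant, was at 11.1, 6.57 and 10.6 CPM against 10.5, 10.2 and 18.6, with overlap (0.47, SE 0.31, edgeR adjusted p 0.271). The choice of these 3 was made with their values known.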
